A study of Mus musculus with 9 samples.

Results

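The genes described here encode the glutathione and antioxidant enzymes of the mouse kidney. A rule on gene names defines them: protein-coding genes of the glutathione S-transferase (Gst), glutathione peroxidase (Gpx), peroxiredoxin (Prdx) and superoxide dismutase (Sod) families, with Cat, Gclc, Gclm, Gsr, Nqo1, Hmox1, Txnrd1 and Nfe2l2. The rule found 48 of the 54532 genes in the deposited table, which lists 22046 protein-coding genes. There were 22 Gst, 8 Gpx, 7 Prdx and 3 Sod genes beside the 8 genes named singly.

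The messenger RNA came from kidneys of 4-month-old male c57BL/6j mice, and 3 groups had 3 libraries each. PBA1 to PBA3 came from hindlimb-unloaded mice injected intraperitoneally with 4-phenylbutyric acid (4-PBA), which helps proteins fold and so relieves stress of the endoplasmic reticulum, at 100 mg per kg per day. HU1 to HU3 came from unloaded mice given vehicle, and GC1 to GC3 from ground controls left untreated, so that unloading and vehicle cannot be told apart in HU against GC. In hindlimb unloading the hind legs bear no weight, a model of disuse and microgravity. The tissue was a piece of kidney with no cell type sorted, and the labels do not say whether animals were pooled, so p-values measure the spread between these samples. Wherever 3 values follow each other for a group, they are those of its libraries 1, 2 and 3 in that order.

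Glutathione is a small thiol made from glutamate, cysteine and glycine. Glutamate-cysteine ligase (catalytic subunit Gclc, modifier Gclm) takes the rate-limiting step, and glutathione reductase (Gsr) restores the oxidised form. Superoxide dismutases turn superoxide into hydrogen peroxide, which catalase, the glutathione peroxidases and the peroxiredoxins remove, while the Gst enzymes join glutathione to reactive and foreign compounds. Nfe2l2 encodes Nrf2, a transcription factor that drives many of these genes through antioxidant response elements. In the kidney the proximal tubule, which reabsorbs most of the filtrate, is the main source of the Gpx3 found in plasma.

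The Gpx family divides by the residue at its active site, and the codons are shown because the 3 members whose HU libraries all lay below GC, Gpx1, Gpx3 and Gpx4, share the same one. In Gpx1, Gpx2, Gpx3 and Gpx4 a UGA codon, a stop elsewhere, is read as selenocysteine. The other Gpx members carry a cysteine codon there. Gpx1, Gpx3 and Gpx4 were also the Gpx members of highest mean level. Txnrd1, outside this family, also has a TGA codon annotated as selenocysteine. Its HU and GC libraries overlapped (log2 difference -0.11). Each line is the coding strand of the GENCODE M21 transcript (GRCm38), 5′ to 3′, with that codon in capitals and 12 bases on each side.
Gpx1: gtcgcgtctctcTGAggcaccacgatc
Gpx2: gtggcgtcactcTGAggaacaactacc
Gpx3: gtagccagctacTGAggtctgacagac
Gpx4: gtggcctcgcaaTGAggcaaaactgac
Gpx5: gtggctacctatTGCggtctgacaatc
Gpx6: gtggcatccttcTGTggcctgacagct
Gpx7: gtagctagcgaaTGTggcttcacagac
Gpx8: gtggctagtgacTGCcgcttcacagac

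The libraries differed in ways that run with the groups. Reads assigned to genes numbered 7595631 to 15141784 per library. Reads of the mitochondrial genome took 13.7% to 67.1% in PBA (67.1% in PBA3), 63.7% to 79.3% in HU and 14.8% to 49.7% in GC (49.7% in GC3). Pseudogenes took 5.84%, 7.54% and 3.73% of the other reads in HU and 4.83% in PBA3, and 0.955% to 1.76% in the remaining 5 libraries. PBA3 thus stood with the HU libraries on both measures, and results are given below with and without it. Summed FPKM of 10 proximal tubule markers, all detected in every library, was 1215 and 1359 in PBA1 and PBA2, 344 in PBA3, 109 to 264 in HU and 1165 to 1511 in GC.

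Levels are in FPKM, the authors' reads per gene length and library constant. By mean FPKM in GC, 39 of the 48 genes reached 1, 29 reached 10, 11 reached 100, and 2, Gpx3 and Gpx1, reached 1000. Gpx3 stood far above the rest, with an average of 10128 FPKM over the 9 libraries, against 1004 for Gpx1, 456 for Prdx5 and 278 for Gstm1. The 48 genes together took 4.52%, 6.77% and 7.68% of the reads outside the mitochondrial genome in PBA, 1.98%, 2.86% and 1.92% in HU, and 6.32%, 5.67% and 6.53% in GC. The HU libraries lay below all others. Much of this sum is Gpx3, which alone gave 2.94%, 4.94% and 6.78% in PBA, 0.975% to 2.09% in HU and 3.85% to 5.15% in GC. The other 47 genes gave 1.57%, 1.83% and 0.903% in PBA, 0.992%, 0.775% and 0.943% in HU and 1.81%, 1.82% and 1.38% in GC, so that PBA3 lay within the HU range without Gpx3.

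**Figure D1:**
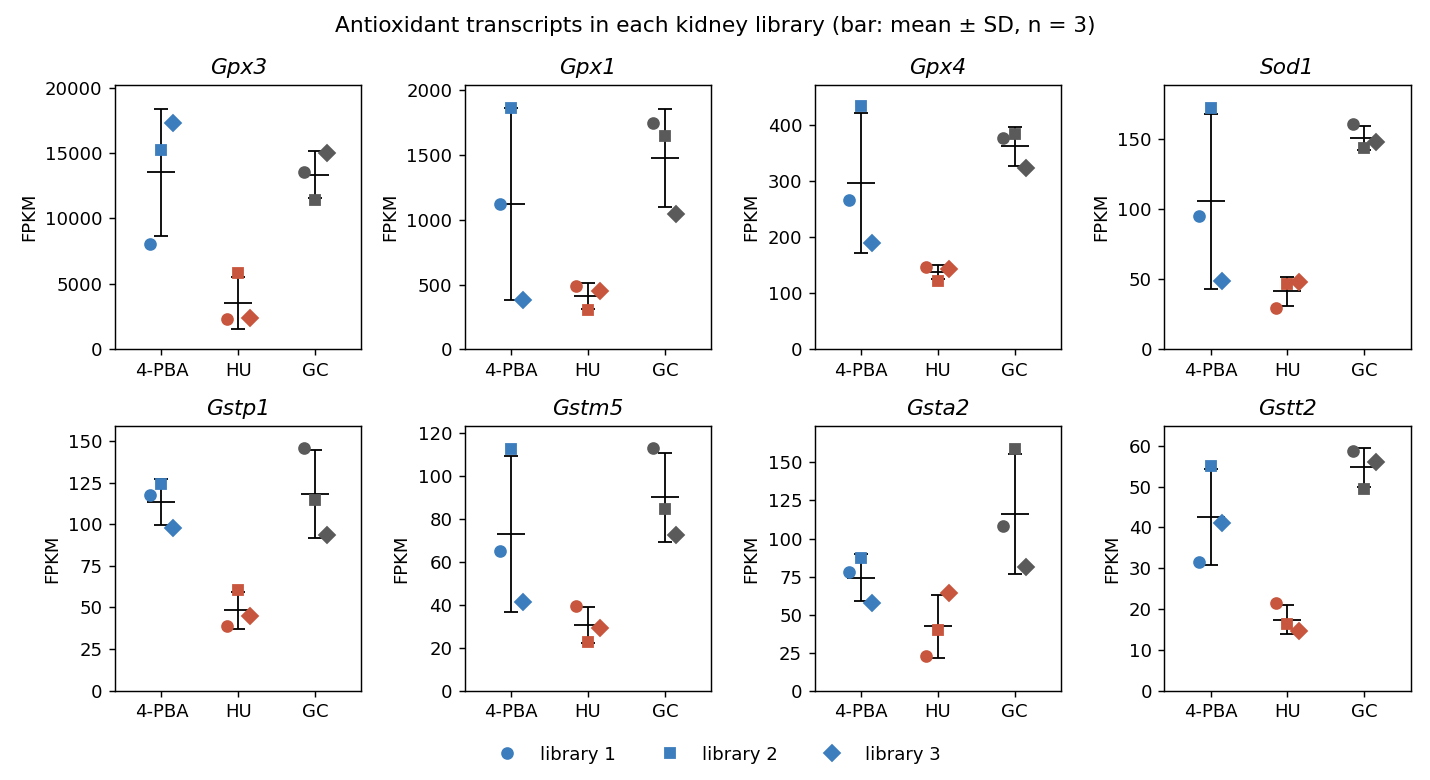
FPKM (linear axis from 0, its own range in each panel) of Gpx3, Gpx1, Gpx4, Sod1, Gstp1, Gstm5, Gsta2 and Gstt2, with 1 symbol per library and the mean ± SD of each group (n = 3), for 4-PBA, HU and GC. In every panel the 3 HU libraries lie below the 3 GC libraries, while library 3 of 4-PBA is the highest of its group for Gpx3 and the lowest for Gpx1, Gpx4, Sod1, Gstp1, Gstm5 and Gsta2.

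Unloaded mice given vehicle were compared with ground controls by limma on log2(FPKM + 1), a scale that understates the change of low genes, over 12642 genes, 41 of the 48 among them. Of these 41, 7 passed at an adjusted p under 0.05 and all 7 were lower in HU: the peroxidases Gpx3 and Gpx4, the dismutase Sod1 and the transferases Gstp1, Gstm5, Gsta2 and Gstt2. Over all genes tested 10.2% passed in either direction, 5.32% higher and 4.90% lower, against 17.1% of the 41, all lower. The median log2 difference of the 41 was -0.57, against -0.03 over all genes, and 33 of the 41 lay below 0, against 51.8% of all genes. For 15 of the 41 members every HU library lay below every GC library, against 19.4% of all genes tested. For 0 of the 41 every HU library lay above, against 18.3% of all genes (37.7% in either direction). In a piece of tissue, fewer cells of a type and less RNA per cell cannot be told apart.

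Among the peroxidases, the selenium enzymes Gpx3 and Gpx4 passed. Gpx3 (ENSMUSG00000018339; mm10 chromosome 11, 54902453 to 54910377), the peroxidase secreted into plasma, had 2338, 5803 and 2409 FPKM in HU and 13541, 11440 and 15009 FPKM in GC. The fitted log2 difference was -2.05 ± 0.57 (SE; limma adjusted p = 0.0497). HU2 was the highest HU library and still lay below GC2, the lowest GC library. Gpx4 (ENSMUSG00000075706; chromosome 10, 80047166 to 80056439), which reduces lipid peroxides in membranes and restrains ferroptosis, had 146, 122.8 and 144 FPKM in HU and 378, 385 and 323 FPKM in GC. The HU libraries were close to each other and far below GC (log2 difference -1.39 ± 0.34, SE; limma adjusted p = 0.0355), and the processed copy Gpx4-ps2, which may share its reads, was lower as well. Gpx1 (chromosome 9, 108338903 to 108340343), the peroxidase of cytosol and mitochondria, had 489, 300.3 and 448 FPKM in HU and 1743, 1642 and 1045 FPKM in GC. Its groups did not overlap either, though the difference of -1.83 ± 0.56 did not pass (SE; limma adjusted p = 0.0677).

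The cysteine peroxidases showed no such gap. Gpx6, Gpx7 and Gpx8, of which Gpx7 and Gpx8 work in the endoplasmic reticulum, overlapped between HU and GC, with log2 differences of -0.25, 0.29 and 0.21. Gpx6, Gpx7 and Gpx8 were low, with means of 7.297, 2.46 and 11.05 FPKM in GC and 12 to 108 reads per HU library. Gpx1, Gpx3 and Gpx4 averaged 1477, 13330 and 362 FPKM in GC. The scale used understates the change of low genes, so codon and level cannot be told apart here. The difference between both kinds of peroxidase was not tested. Gpx2, the selenium peroxidase of the gut, had at most 4 reads in any library. Gpx5, known from the epididymis, had 16, 3 and 3 reads in HU and 0 in the other 6 libraries, each of which allows up to 3 reads.

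Among the dismutases and catalase, which form and remove hydrogen peroxide, Sod1 passed. Sod1 (ENSMUSG00000022982; chromosome 16, 90220754 to 90226329), the copper and zinc enzyme of the cytosol, had 29.4, 46.5 and 48.3 FPKM in HU and 161, 144 and 148 FPKM in GC. The lowest GC library was well above the highest HU library, and the log2 difference was -1.87 ± 0.43 (SE; limma adjusted p = 0.0286). Scaf4 overlaps it on the other strand, with 1861 reads in all against 61420 for Sod1. Sod3, the extracellular enzyme, averaged 59.4 ± 15.9 FPKM in HU and 106 ± 18 FPKM in GC (SD, n = 3 each), with no pass at a log2 difference of -0.85 (limma adjusted p = 0.201). Sod2, the manganese enzyme of mitochondria, averaged 16.7 ± 3.64 FPKM in HU and 17.9 ± 3.2 FPKM in GC. Its groups overlapped. Cat, catalase of the peroxisome, had 90.6, 78.1 and 71.5 FPKM in HU and 209, 261 and 135 FPKM in GC, without overlap (log2 difference -1.28, limma adjusted p = 0.116).

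None of the 6 peroxiredoxins tested passed, and all 6 had log2 differences below 0, -1.49 to -0.13. Prdx5, found in mitochondria, peroxisomes and cytosol, was the highest of them, with 165, 245 and 278 FPKM in HU and 651, 584 and 666 FPKM in GC. The groups were well apart (log2 difference -1.49 ± 0.46, SE; limma adjusted p = 0.0681). Prdx1, a cytosolic peroxiredoxin, overlapped: 121, 84.9 and 94.7 FPKM in HU and 194, 238 and 90.6 FPKM in GC, where GC3 lay among the HU libraries. Prdx2 and Prdx6 did not overlap and Prdx3 and Prdx4 did. Prdx6b had 28, 3 and 0 reads in HU and 0 reads elsewhere.

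**Figure D2:**
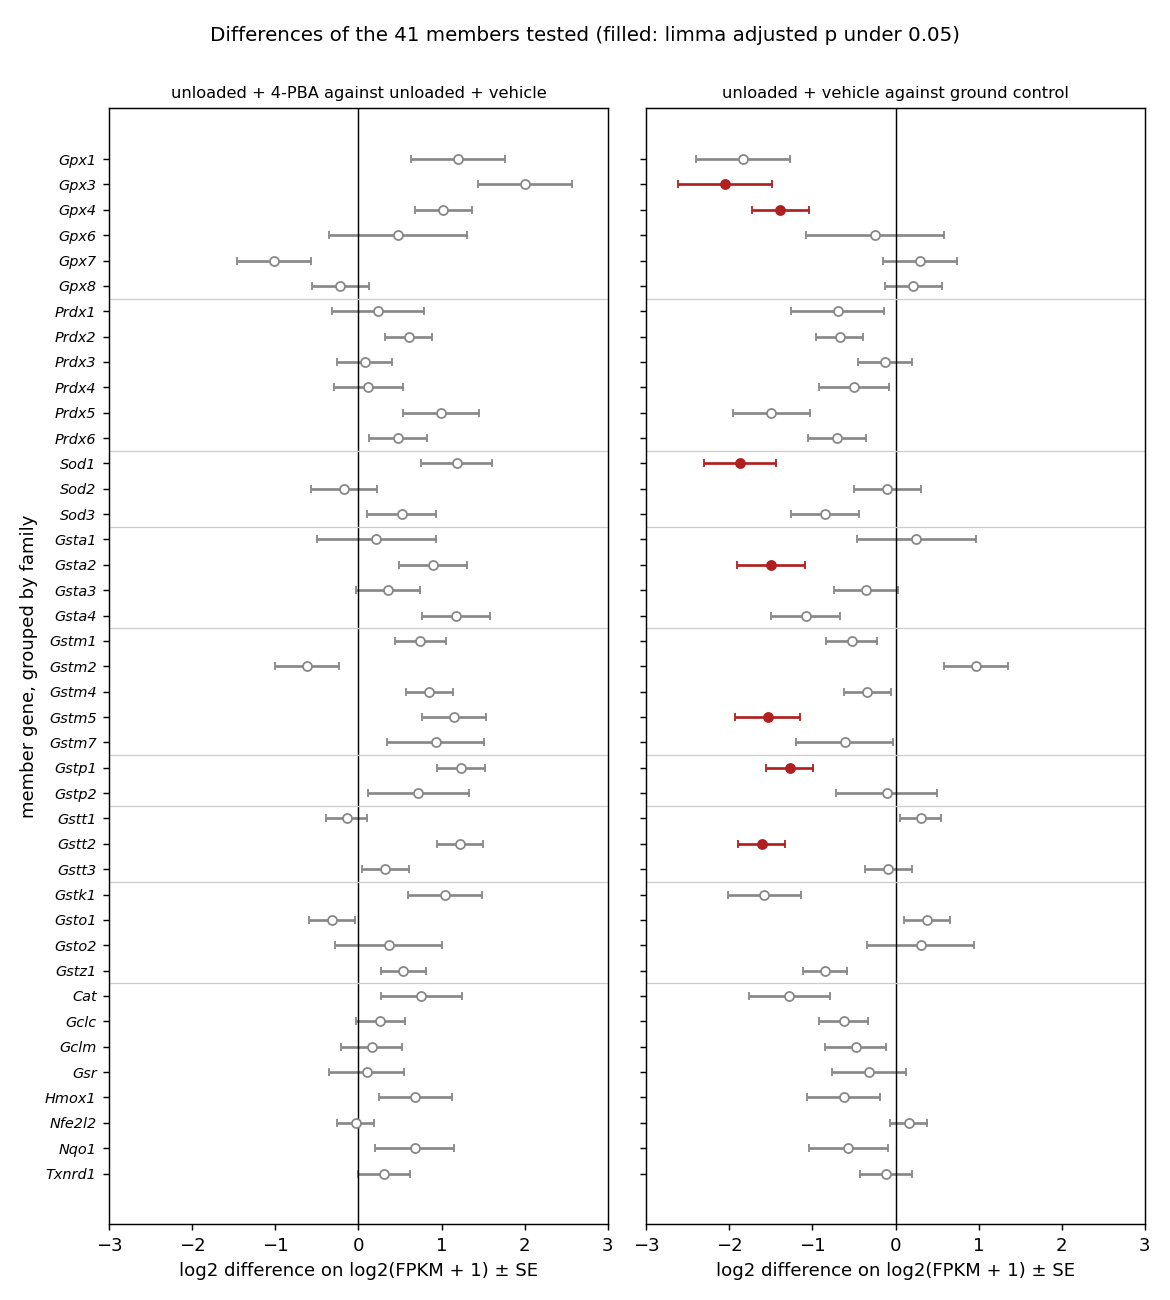
Log2 difference on log2(FPKM + 1) with its SE (bars) for the 41 members tested, PBA against HU in the left panel and HU against GC in the right, with filled red points for members past a limma adjusted p of 0.05. In PBA against HU 34 points lie right of 0 and none is filled, and in HU against GC 33 lie left of 0 and 7 are filled. Both panels use the HU libraries.

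Of the 18 transferases tested, 4 passed, each from another class. Gstp1 (ENSMUSG00000060803; chromosome 19, 4035407 to 4037921), the main pi-class enzyme here, had 38.9, 60.7 and 45.0 FPKM in HU and 146, 115 and 93.6 FPKM in GC. Even the highest HU library stayed below GC3 (log2 difference -1.28 ± 0.29, SE; limma adjusted p = 0.0279). Gstt2 (ENSMUSG00000033318; chromosome 10, 75831114 to 75837424), of the theta class, had 21.4, 16.3 and 14.5 FPKM in HU and 58.7, 49.5 and 56.0 FPKM in GC. It had the smallest p of the 41, with both groups tight (log2 difference -1.61 ± 0.28, SE; limma adjusted p = 0.0143). Gstt1, which codes for the other main theta enzyme, did not share the gap: 50.9, 46.1 and 57.1 FPKM in HU against 44.6, 48.5 and 32.5 FPKM in GC.

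In the mu class Gstm5 (ENSMUSG00000004032; chromosome 3, 107895821 to 107898686) had 39.3, 22.9 and 29.4 FPKM in HU and 113, 84.5 and 72.8 FPKM in GC. An antisense gene, 4933431E20Rik, overlaps it with 1069 reads in all against 12780 for Gstm5. All HU libraries lay below GC3 (log2 difference -1.54 ± 0.39, SE; limma adjusted p = 0.0377). Gstm1, the most abundant transferase, had 253, 204 and 155 FPKM in HU and 348, 279 and 247 FPKM in GC, with HU1 just above GC3. Gstm2 lay the other way, with 65.7, 37.3 and 57.9 FPKM in HU and 19.0, 25.1 and 37.4 FPKM in GC. It had the largest positive log2 difference of the 41, 0.97 (limma adjusted p = 0.129), and was named after its values were seen. In the alpha class Gsta2 (ENSMUSG00000057933; chromosome 9, 78331018 to 78355788) had 22.5, 40.1 and 64.1 FPKM in HU and 108, 159 and 81.2 FPKM in GC. HU3 came nearest to GC3 (log2 difference -1.50 ± 0.41, SE; limma adjusted p = 0.0481). Gsta4, which clears the lipid peroxidation product hydroxynonenal, averaged 11.9 ± 6.88 FPKM in HU and 25.2 ± 10.9 FPKM in GC (SD, n = 3 each; limma adjusted p = 0.117).

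Outside these classes, Gstk1 of mitochondria and peroxisomes had 7.75, 14.4 and 20.6 FPKM in HU and 56.8, 41.7 and 30.5 FPKM in GC, without overlap (log2 difference -1.58, limma adjusted p = 0.0514). Gstz1, which acts in tyrosine breakdown, had a log2 difference of -0.85, again without overlap (limma adjusted p = 0.073). The other 8 transferases tested (Gsta1, Gsta3, Gstm4, Gstm7, Gstp2, Gstt3, Gsto1 and Gsto2) overlapped between HU and GC, with log2 differences of -0.61 to 0.37. Some of these genes have close copies among which reads may be split. The coding sequences of Gsta1 and Gsta2 were 98.05% identical, and those of Gstp1 and Gstp2 98.1%. Gsta1 and Gstp2 were low, at up to 4.03 and 3.54 FPKM in any library. Summed over both copies, Gsta1 and Gsta2 had 22.5 to 64.1 FPKM in HU and 81.2 to 160.4 FPKM in GC.

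None of Gclc, Gclm, Gsr, Nqo1, Hmox1, Txnrd1 and Nfe2l2, which serve glutathione synthesis and recycling and the Nrf2 response, passed. Gclc averaged 32.3 ± 8.92 FPKM in HU and 50.6 ± 14.4 FPKM in GC, and Gclm 27.7 ± 6.69 FPKM in HU and 38.9 ± 8.86 FPKM in GC (SD, n = 3 each). Their groups overlapped, and neither passed (limma adjusted p = 0.197 for Gclc and 0.409 for Gclm). Gsr (log2 difference -0.32), the quinone reductase Nqo1 (-0.57), the haem-degrading Hmox1 (-0.62) and the thioredoxin reductase Txnrd1 (-0.11) overlapped as well. Nfe2l2 itself had 14.8, 11.8 and 13.7 FPKM in HU and 12.0, 12.9 and 10.9 FPKM in GC (log2 difference 0.16 ± 0.22, SE; limma adjusted p = 0.67).

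Promoters are shown for 2 members that fell and 2 that did not pass, as each holds a core of the antioxidant response element. The core was searched as TGACNNNGC on both strands of RefSeq windows (GRCm38.p6) from 250 bases before to 50 after the start, which were at hand for 40 of the 48 genes. Sod1 and Gstm5 are those that fell, and Gclm and Nfe2l2 those that did not pass. The 250 bases before the start are printed on the strand of the gene, 5′ to 3′, with the core in capitals. They are chr16:90220512-90220761 (plus strand) for Sod1, chr3:107895604-107895853 (plus strand) for Gstm5, chr3:122245307-122245556 (plus strand) for Gclm and chr2:75704664-75704913 (minus strand) for Nfe2l2.
Sod1: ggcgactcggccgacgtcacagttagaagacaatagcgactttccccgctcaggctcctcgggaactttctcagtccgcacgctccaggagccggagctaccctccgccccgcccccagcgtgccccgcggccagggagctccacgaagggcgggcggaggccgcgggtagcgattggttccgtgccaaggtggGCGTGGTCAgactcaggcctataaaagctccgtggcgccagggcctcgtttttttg
Gstm5: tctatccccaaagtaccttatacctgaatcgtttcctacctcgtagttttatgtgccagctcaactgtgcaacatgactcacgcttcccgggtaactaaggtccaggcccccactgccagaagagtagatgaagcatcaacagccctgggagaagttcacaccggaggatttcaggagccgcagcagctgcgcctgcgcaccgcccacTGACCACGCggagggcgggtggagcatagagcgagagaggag
Gclm: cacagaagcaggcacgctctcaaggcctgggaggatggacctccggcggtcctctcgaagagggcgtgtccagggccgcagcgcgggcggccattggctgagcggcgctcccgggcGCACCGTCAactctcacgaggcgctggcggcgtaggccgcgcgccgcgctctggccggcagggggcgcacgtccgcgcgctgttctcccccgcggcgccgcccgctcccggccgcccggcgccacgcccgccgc
Nfe2l2: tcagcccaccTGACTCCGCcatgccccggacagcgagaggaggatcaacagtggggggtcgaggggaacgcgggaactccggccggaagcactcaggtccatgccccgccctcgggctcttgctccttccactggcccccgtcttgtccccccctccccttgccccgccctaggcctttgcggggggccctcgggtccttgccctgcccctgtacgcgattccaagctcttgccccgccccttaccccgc

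The core stood in 8 of the 40 windows (20% of them, against 13.99% of all 27025 genes in the table): those of Gclm, Gsta3, Gstm5, Gstm7, Nfe2l2, Prdx1, Sod1 and Txnrd1. Of the 7 members that fell, 6 had a window and 2 of these held it. Of the 28 members with a window that were tested and did not pass, 6 held it (21.43%). An AP-1 site, TGANTCA, was held by 4 of the 40 genes (10%, against 8.973% of all genes): Gstm5, Gstp1, Gstp2 and Prdx1. In Prdx1 the core overlaps an AP-1 site. These matches are descriptions of the letters and not shown binding.

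The other genes of the pathway were read from a list of 94, of which 82 were tested. In HU against GC 8 of the 82 passed lower (9.76%, against 4.90% of all genes) and 1 passed higher (against 5.32% of all genes). The median log2 difference was -0.34. In either direction 9 of 82 stands near the 10.2% of all genes. How these calls depended on the libraries and the processing is given below. The largest fall was in Cyba, the p22phox subunit of the superoxide-making NADPH oxidases, with 32.1, 49.8 and 38.0 FPKM in HU and 477, 419 and 431 FPKM in GC (log2 difference -3.46 ± 0.37, SE; limma adjusted p = 0.00319). Among the enzymes of glutathione, Ggt1, which starts its breakdown outside the cell at the tubule brush border, fell by 2.24 on the log2 scale (limma adjusted p = 0.0326). Gss, which adds the glycine, fell by 1.36 (limma adjusted p = 0.0397). Dpep1, the brush-border dipeptidase of the same breakdown, rose: it had 120, 211 and 170 FPKM in HU and 42.4, 47.1 and 47.0 FPKM in GC (log2 difference 1.82 ± 0.43, SE; limma adjusted p = 0.03). Every HU library lay above every GC library. The remaining 5 that fell were the membrane-bound transferase Mgst1 (-1.88), the biliverdin reductase Blvra (-1.54), the NADPH-making Idh1 (-1.18), the mitochondrial thioredoxin reductase Txnrd2 (-1.05) and Lrp2 (-2.04), the megalin receptor that takes up selenoprotein P and also marks the proximal tubule (limma adjusted p = 0.0186 to 0.0491).

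Markers of the proximal tubule were lower in HU as well. Of the 10 proximal tubule markers 7 passed lower in HU against GC, and Slc34a1 had 29.7, 100.4 and 31.4 FPKM in HU and 674, 497 and 694 FPKM in GC. Summed over 5 fibroblast markers, the level was 89.7 to 180 FPKM in HU and 9.54 to 33.4 FPKM in GC. By limma 0 of 5 passed the threshold and 5 had an unadjusted p under 0.05, against 29.8% of all genes tested. Red cells and liver also hold many of these enzymes. Summed over the red cell genes Hba-a1, Hba-a2, Hbb-bs and Hbb-bt, which encode haemoglobin chains, the level was 415 to 1389.6 FPKM in PBA, 206 to 310.5 FPKM in HU and 482 to 1909 FPKM in GC, with HU below all other libraries. The liver sum over 8 markers was 60.6 to 156 FPKM in HU and 265 to 562 FPKM in GC, with Cyp2e1, also expressed in kidney tubules, lower and Alb higher in HU. The part of these in the fall of the antioxidant genes was not tested.

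The count of 7 depended on single libraries and on the scaling. The share of all genes that passed changed too, though not always in the same direction. It was 0 without GC1 (0.546% of all genes passed), 1 (Gstt2) without GC2 (1.82%) and 0 without GC3 (0.997%). Without HU1, HU2 or HU3 it was 2, 4 and 2 (7.48%, 8.17% and 5.29% of all genes). Without PBA1, PBA2 or PBA3, which enter through the shared estimate of the spread, it was 3, 8 and 11 (6.91%, 9.58% and 18.7%), and without both PBA3 and GC3 it was 13 (11.3%). Scaled to total reads it was 12 (18.5% of all genes), with a median of -1.50 for the 41 and -0.78 for all genes. Scaled to reads outside the mitochondrial genome, Gpx3 and Gsta2 among the 7 did not pass (10.6% of all genes passed). Scaled by TMM, Gsta2 did not (10.4%). With the mitochondrial share as a covariate the count was 0 (0.783% of all genes) and the median of the 41 was -0.09. All 7 kept their sign in each of the 21 alternatives tried. The call held in 18 of these for Gstt2, 14 each for Gstp1 and Sod1, 12 for Gstm5, 11 for Gpx4, 8 for Gpx3 and 6 for Gsta2.

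**Figure D3:**
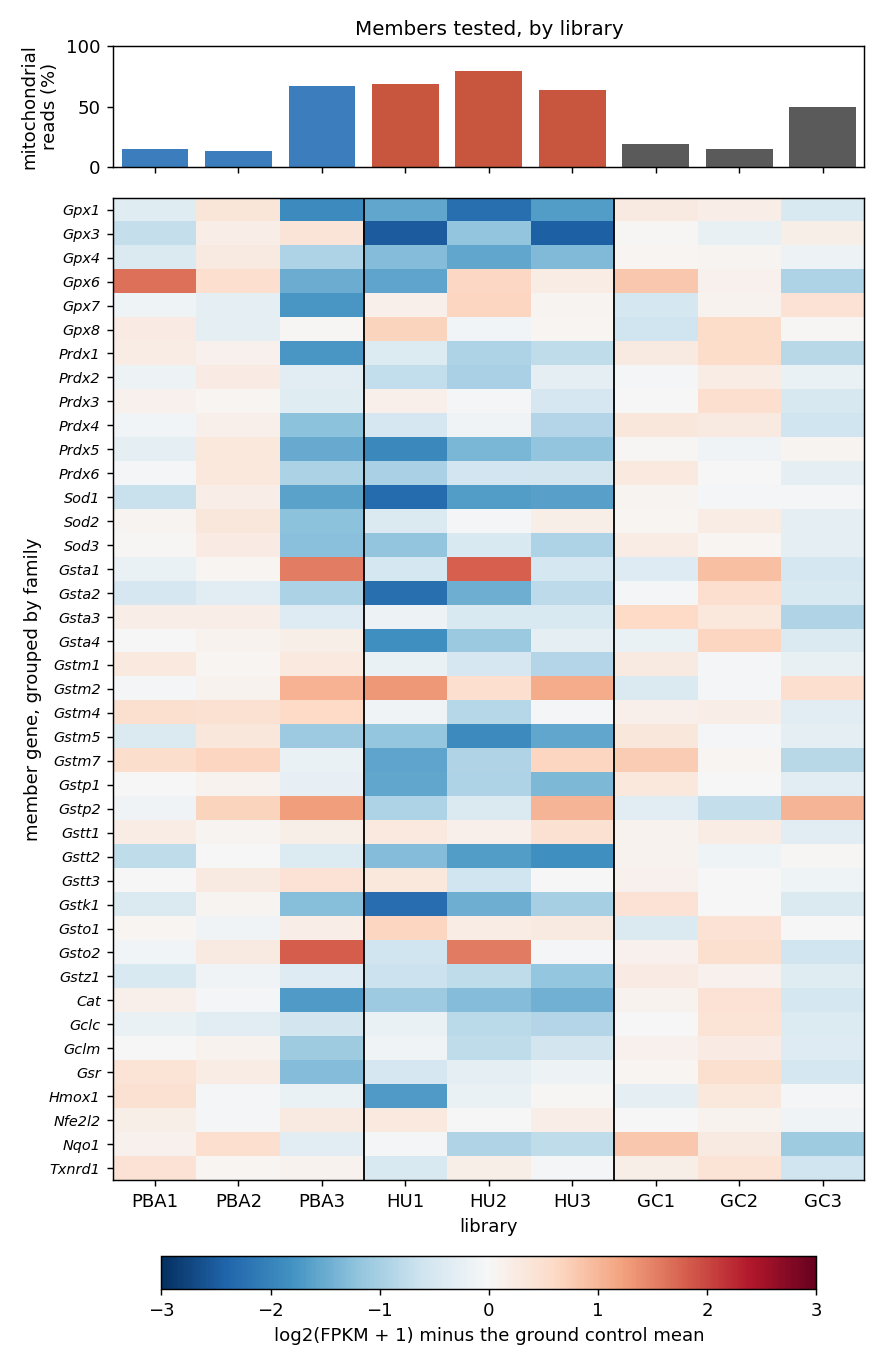
Upper panel: percent of reads from the mitochondrial genome in each library. Lower panel: log2(FPKM + 1) of each tested member minus its mean in GC (colour), with columns in the order PBA, HU, GC. PBA3 was the lowest PBA library in 25 of 41 members (not counted over all genes) and had 67.1% mitochondrial reads.

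Unloaded mice given 4-PBA were compared with unloaded mice given vehicle, the same 3 HU libraries as before. None of the 41 members passed by limma, where 2.69% of all genes did (1.16% higher and 1.53% lower). An unadjusted p under 0.05 was found for 11 of the 41, against 20.1% of all genes. By limma-voom on recovered reads 2 passed, Gstp1 and Gstt2, both higher in PBA, where 3.55% of all genes passed. The median log2 difference of the 41 was 0.52, against 0.02 over all genes, and 34 lay above 0, with 48.8% of all genes below 0. For 10 of the 41 members every PBA library lay above every HU library, against 10.1% of all genes tested. For 2 members, Gpx7 and Gsto1, every PBA library lay below, and 20.3% of all genes did not overlap in either direction.

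Gpx3 had 8059, 15243 and 17310 FPKM in PBA and 2338, 5803 and 2409 FPKM in HU. PBA3 was the highest of all 9 libraries, and the groups did not overlap, at a log2 difference of 2.01 ± 0.57 that did not pass (SE; limma adjusted p = 0.0974). Gstt2 had 31.6, 55.0 and 41.1 FPKM in PBA and 21.4, 16.3 and 14.5 FPKM in HU, with PBA3 between the other PBA libraries (log2 difference 1.22 ± 0.28, SE; limma adjusted p = 0.0519). Gstp1 had 118, 124 and 97.9 FPKM in PBA and 38.9, 60.7 and 45.0 FPKM in HU. All 3 PBA libraries were well above HU (log2 difference 1.23 ± 0.29, SE; limma adjusted p = 0.0561). Gsta4 had 23.9, 25.6 and 27.1 FPKM in PBA and 5.95, 10.4 and 19.4 FPKM in HU, and Gstm1 had 353, 301 and 357 FPKM in PBA and 253, 204 and 155 FPKM in HU. In both genes PBA3 was the highest PBA library.

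For other members PBA3 stood with HU. Gpx1 had 1124, 1863 and 381 FPKM in PBA and 489, 300.3 and 448 FPKM in HU. Sod1 had 95.1, 172 and 49.0 FPKM in PBA and 29.4, 46.5 and 48.3 FPKM in HU, and Cat had 217, 191 and 59.2 FPKM in PBA and 90.6, 78.1 and 71.5 FPKM in HU. In each of these genes PBA1 and PBA2 lay above every HU library, while PBA3 was within the HU range for Gpx1, just above it for Sod1 and below it for Cat. Prdx5 had 513, 783 and 222 FPKM in PBA and 165, 245 and 278 FPKM in HU, and the summed Prdx level was 866, 1146 and 387 FPKM in PBA and 419 to 490 FPKM in HU. Over the 41 members PBA3 fell within the HU range for 19, PBA1 for 11 and PBA2 for 10. The same count was not made over all genes, so it is not shown to be particular to the members. The summed level of all 22 transferases, in contrast, was 841, 900 and 820 FPKM in PBA, 516 to 572 FPKM in HU and 728 to 996 FPKM in GC, so that PBA3 stood with the other PBA libraries.

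Gpx4 had 266, 434 and 190 FPKM in PBA and 146, 122.8 and 144 FPKM in HU, and Gstm5 had 65.3, 113 and 41.4 FPKM in PBA and 39.3, 22.9 and 29.4 FPKM in HU. In both, PBA3 was the lowest PBA library and lay above the highest HU library, just above it for Gstm5. Gsta2 and Gstk1 overlapped between PBA and HU. Gclc, Gclm, Gsr, Nqo1, Hmox1, Txnrd1 and Nfe2l2 had log2 differences of -0.03 to 0.69, all with overlap. Nfe2l2 had 13.6, 11.3 and 14.5 FPKM in PBA and 14.8, 11.8 and 13.7 FPKM in HU.

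Without PBA3, 8 members passed, all higher in PBA: Cat, Gpx1, Gpx4, Gstm5, Gstp1, Gstt2, Prdx5 and Sod1, where 10.4% of all genes passed. Gpx3, the highest of all in PBA3, was not among them. Leaving out any other library gave 0, where 0.285% to 2.37% of all genes passed. PBA3 had 67.1% mitochondrial reads, a proximal tubule marker sum of 344 FPKM against 1215 and 1359 in PBA1 and PBA2, and a fibroblast marker sum of 177 FPKM against 44.2 and 8.05. The part of these differences in the level of the members was not tested.

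**Figure D4:**
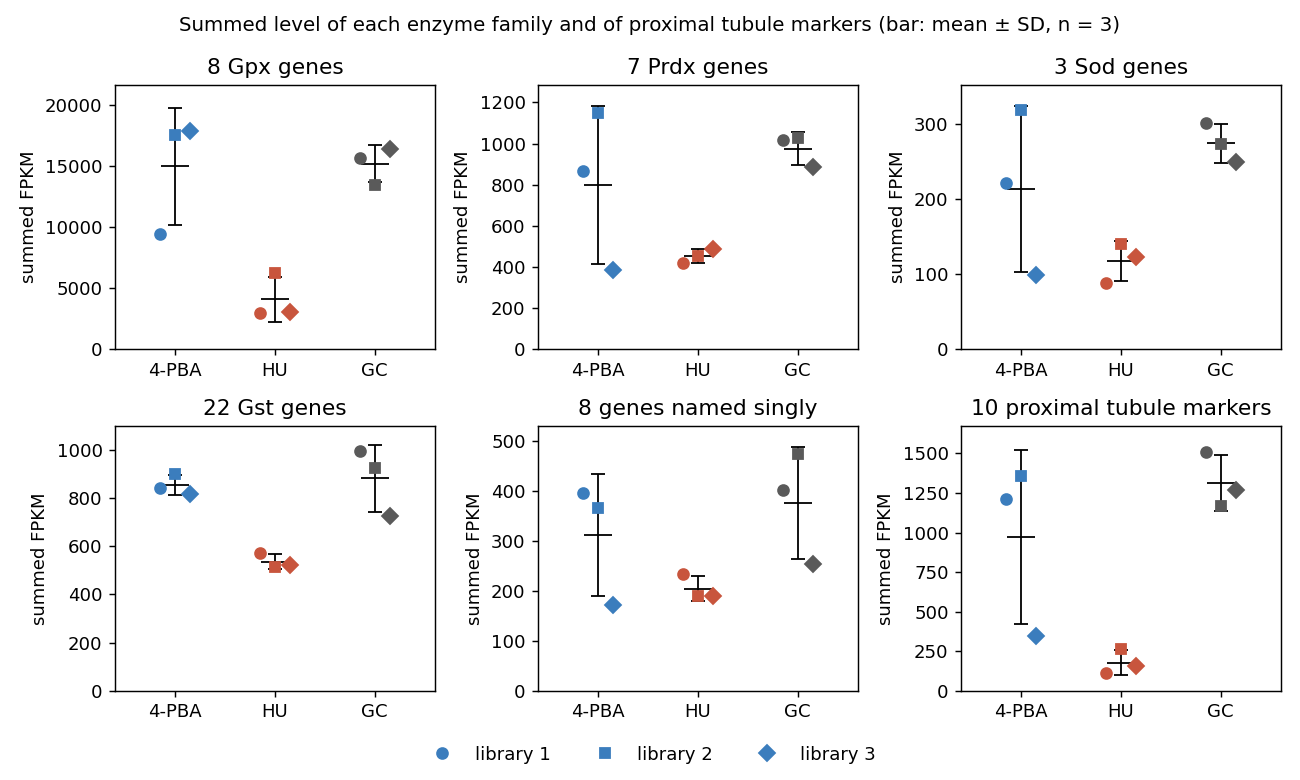
Summed FPKM of the Gpx, Prdx, Sod and Gst genes, of the 8 genes named singly and of 10 proximal tubule markers, with 1 symbol per library and the mean ± SD of each group (n = 3), for 4-PBA, HU and GC. In the Prdx panel library 3 of 4-PBA, at 387, lies below all HU libraries, while in the Gst panel, at 820, it lies above all of them.

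From the list of other pathway genes 2 of 82 passed, both higher in PBA, where 2.69% of all genes passed. Cyba had 257, 495 and 204 FPKM in PBA and 32.1, 49.8 and 38.0 FPKM in HU (log2 difference 2.88 ± 0.37, SE; limma adjusted p = 0.00803). Blvra had 17.2, 26.9 and 19.3 FPKM in PBA and 6.78, 10.6 and 5.67 FPKM in HU (log2 difference 1.36 ± 0.30, SE; limma adjusted p = 0.0466). In both, PBA3 lay above every HU library. Of these 2, neither passed with no filter on low values (0.0559% of all genes passed) or with only the PBA and HU libraries in the fit (0.134%). With a pseudocount of 0.1 or 4, a replicate block or the mitochondrial share as a covariate, 1 of the 2 did not pass. The same held with HU1, HU3, PBA1, PBA2, GC1, GC2 or GC3 left out in turn. Dpep1 had 34.4, 47.0 and 114 FPKM in PBA and 120, 211 and 170 FPKM in HU, with PBA3 nearest to HU (log2 difference -1.49, limma adjusted p = 0.0989).

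Unloaded mice given 4-PBA were also set against ground controls. Neither a member nor any other gene passed by limma (0.00% of 12642), nor by limma-voom, and 165 genes but none of the 41 members had an unadjusted p under 0.05. The median log2 difference of the members was -0.05. PBA2 lay within the GC range for 30 of 41 members, PBA1 for 27 and PBA3 for 11, and PBA3 lay below the lowest GC library for 21 and above the highest for 9. These positions were not counted over all genes. Gpx3 averaged 13537 ± 4856 FPKM in PBA and 13330 ± 1794 FPKM in GC, and Sod1 averaged 106 ± 62.3 FPKM in PBA and 151 ± 8.82 FPKM in GC (SD, n = 3 each). Gstm4, named after its values were seen, was the 1 member whose groups did not overlap, with 6.31, 6.16 and 6.95 FPKM in PBA and 4.79, 4.99 and 3.10 FPKM in GC, where groups did not overlap for 8.00% of all genes (4.37% higher and 3.63% lower).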

How the data were processed

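Per the labels' protocols, poly(A)-selected, strand-marked libraries were sequenced from 9 kidney samples, 3 a group. CASAVA, cutadapt, HISAT2 and the mm10 genome were used, per the submitters' processing notes. Not given in the sources used here are the read counter, its strand setting and all versions. In the authors' deposited FPKM each value was a whole number of reads over the gene's length and a library constant (100% of values within a tolerance of 0.01). The recovered reads gave 7595631 to 15141784 per library, and within each group every pair of libraries differed by more than sampling noise.

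Members and lists were chosen with earlier results of these data known. All 9 libraries entered 1 limma fit (3.58.1, R 4.3.3) of 3 groups on log2(FPKM + 1), empirical Bayes with a trend, over the 12642 genes that reached an FPKM of 1 in 3 or more libraries, with Benjamini-Hochberg adjusted p under 0.05. Of the members, Gpx2, Gpx5, Gstm3, Gstm6, Gstp3, Gstt4 and Prdx6b were too low to test. Described singly are members past the threshold, the 2 of highest mean level in each family and the 8 genes the rule names. Of the pathway list, genes past the threshold are named. The full erythroid marker list is not reported here, and the 4 haemoglobin genes summed in its place were chosen after their values were seen. The code was tested on simulated data. Alternatives covered scaling, pseudocounts of 0.1 and 4, filters, the libraries in the fit, a replicate block, the mitochondrial share as a covariate, limma-voom on recovered reads, and libraries left out. Coordinates of 44 of the 48 members equalled those of GENCODE M21. Promoters were from RefSeq (GRCm38.p6). Figures used Python 3.11.15 and matplotlib 3.10.9.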

Additional observations from a re-analysis of the deposited data

How the results depend on the processing

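The count of members past the threshold in HU against GC (7, all lower) was 12 with values scaled to total reads, where 18.5% of all genes passed. It was 1 with no filter on low values (0.783% of all genes) and 0 with the mitochondrial share as a covariate (0.783%). It was 13 (12 lower and Gstm2 higher) without PBA3 and GC3, where 11.3% of all genes passed. Leaving out 1 library gave 0 to 11, where 0.546% to 18.7% of all genes passed. In PBA against HU (0 as reported) it was 1 with total reads (Gpx3), where 5.71% of all genes passed, and 1 with TMM (Gstt2), where 2.95% did. It was 2 with limma-voom (Gstp1 and Gstt2), where 3.55% of all genes passed, and 7 without PBA3 and GC3, where 8.84% did. With 1 library left out it was 0 to 8, where 0.285% to 10.4% of all genes passed. In PBA against GC it was 0 in every alternative run. Scaling to total reads moved the median log2 difference of all genes in HU against GC to -0.78, and that of the members to -1.50. All genes then split into 303 higher and 2036 lower, against 672 and 620 as reported and 520 and 789 with TMM. Replicate numbers were not shown to pair the samples (correlations of -0.20 to 0.29 between libraries of the same number). With the number as a block, 3 of the 41 members passed in HU against GC (Gstp1, Gstt2 and Sod1), against 7.15% of all genes. In PBA against HU 0 members passed (1.08% of all genes), and in PBA against GC 0 (0% of all genes). The cause of these changes was not tested, and the HU libraries, with 1568888 to 3037972 reads outside the mitochondrial genome, limit what the low members can show.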

Other observations

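Reads were assigned to processed copies of members in the deposited table, and how the counter divided reads between a gene and its copy is not given in the sources used here. Gpx4-ps2 had 114, 212 and 104 FPKM in PBA, 62.5, 41.6 and 69.1 FPKM in HU, and 227, 183 and 152 FPKM in GC, with a log2 difference of -1.69 in HU against GC (limma adjusted p = 0.0232). Summed with Gpx4 the level was 294 to 646 FPKM in PBA, 164 to 213 FPKM in HU and 475 to 605 FPKM in GC. Gstp-ps had 33.1, 92.3 and 67.6 FPKM in PBA, 25.7, 34.1 and 13.3 FPKM in HU and 76.0, 49.1 and 59.3 FPKM in GC. Summed with the 3 pi-class genes it gave 152 to 219 FPKM in PBA, 61.8 to 95.2 FPKM in HU and 157 to 223 FPKM in GC, so that HU lay below both other groups with the copies added.

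Of the members that fell, Sod1 overlaps Scaf4 on the other strand, which had 1861 reads over the 9 libraries against 61420 for Sod1, and Gstm5 overlaps the antisense gene 4933431E20Rik, with 1069 reads against 12780 for Gstm5. Among the members too low to test, Gstm6 had 18, 24 and 0 reads in PBA, 24, 16 and 9 reads in HU and 11, 16 and 0 reads in GC. Gstm3 had at most 18 reads, Gstp3 at most 11 and Gstt4 at most 2 in any library.

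Other cell type markers differed between libraries too. The urothelium sum over 5 markers was 77.7, 25.2 and 159 FPKM in PBA, 28.3, 42.1 and 6.96 FPKM in HU and 2.15, 17.5 and 1.21 FPKM in GC. The adipocyte sum over 4 markers was 363 FPKM in PBA3 and 364 FPKM in GC2, and 8.00 to 16.8 FPKM in the other 7 libraries. Of the markers of the other cell types, 1 each of the distal convoluted tubule, intercalated cell and podocyte lists passed lower in HU against GC by limma. In the thick ascending limb, principal cell, endothelium and macrophage lists 0 passed. Of their 4, 3, 4 and 6 markers tested, 1, 0, 0 and 2 had an unadjusted p under 0.05, against 29.8% of all genes.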
